A study of Mus musculus with 4 samples.

Results

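Wnt signalling genes were followed in whole mouse embryos that lack the orphan nuclear receptor Gcnf, the gene now called Nr6a1. The set comprised 47 listed genes for Wnt ligands, their receptors, secreted inhibitors, R-spondins, intracellular feedback proteins and nuclear effectors. Members were the probe sets of the array that the platform annotation assigns to a single listed symbol, and the brightest probe set of a gene, by its mean over the arrays, stood for the gene. This gave 46 measured genes out of 18193 on the array, carried by 95 probe sets. Tcf7 had no probe set with that symbol alone and was not analysed here.

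Gene expression had been measured on 4 Affymetrix mouse arrays, 1 per whole embryo at embryonic day 9.0 (E9.0), as labelled. Both groups held 2 embryos, wildtype (wt) and homozygous mutant (Gcnf-/-, constitutive loss in all tissues). The methods give a wider collection window than the labels, and neither somite number nor litter is given in the sources used here. Mutants of this kind are known to develop more slowly and to die around mid-gestation, so genotype and developmental pace cannot be told apart.

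Wnt proteins are secreted, lipid-modified signals that bind a Frizzled receptor together with the co-receptors Lrp5 or Lrp6. In the canonical branch this stabilises beta-catenin, encoded by Ctnnb1, which joins Lef1 and other TCF factors in the nucleus to switch on target genes, some of which (Axin2, Nkd1, Dkk1) dampen the pathway again. In the embryo, Wnt3a and Wnt8a act in the posterior growth zone where trunk and tail tissue is produced, Wnt1 acts in the midbrain and dorsal neural tube, and Wnt2 is known from the allantois and the heart region.

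Values are robust multi-array average (RMA) log2 signals, so that a difference of 1 is a 2-fold change, and differences are Gcnf-/- minus wt. Calls needed a change of 2-fold or more together with a Benjamini-Hochberg adjusted p not above 0.05, from limma fitted across all 45037 probe sets. Errors of a difference are limma's moderated standard errors (SE, n = 2 embryos per genotype), which draw on the spread of all probe sets. Levels of different probe sets are not compared, because each probe set binds its transcript differently.

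The Nr6a1 probe sets did not check the labels. All 5 lay above wt in the mutants, by 0.05 to 0.56, and where they lie relative to the mutation is not known here. Wildtype replicate 1 was female by its Xist signal and the other 3 embryos were male. The 3 control probe sets for 18S ribosomal RNA averaged 9.45 and 9.99 in the wt embryos against 10.83 and 10.74 in the mutants. The 24 polyA control probe sets averaged 9.61 in the female wt replicate 1 and 10.33, 10.38 and 10.30 in wt replicate 2 and the mutants, so that this array stood apart by -0.73. Markers of tissues that a whole embryo should hold were at high signal, with the atrial myosin light chain Myl7 at a mean of 13.15 in wt, the neural factor Sox2 at 11.29 and the somite factor Tcf15 at 9.92. Of 4 maternal decidua and placenta markers, Tpbpa and Prl8a2 were dim, at means of 4.06 and 5.35 in wt, while Cryab averaged 9.93 and Dcn 9.09. Dcn lay at 0.93 ± 0.23 and 0 of the 4 were called (1 at an unadjusted p under 0.05 in limma). The part of embryo sex, control signal and maternal tissue in the results was not tested. In whole embryos, fewer cells of a type and less RNA per cell cannot be told apart.

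Of the 46 Wnt genes, Wnt8a and Wnt2 were called, both higher in mutants, and none was called lower. That is 4.35% of the members, where 0.544% of all genes were called in either direction, 0.423% were called higher and 0.121% lower. The median difference of the members was -0.01, beside -0.01 over all genes, with 21 above and 25 below wt (45.7% above, against 47.2% of all genes). The embryos of the genotypes did not overlap for 26 members (56.5%), and 56.6% of all genes met the same condition. A difference of at least 0.5 in either direction was measured for 9 members (19.6%), 5 of them higher and 4 lower, against 5.16% of all genes. Without the adjustment, 17 members (37.0%) had a p under 0.05 in limma, against 23.8% of all genes. These shares are not matched for signal. A mean below 6 was found for 5 of the 46 members and for 4685 of 18193 genes.

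**Figure D1:**
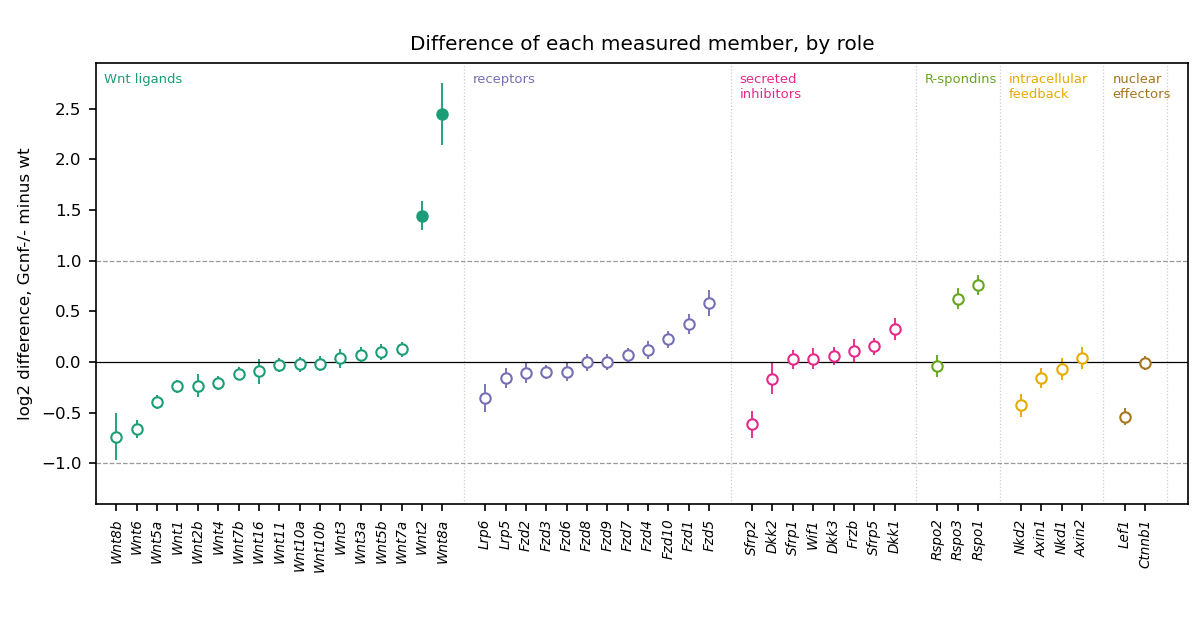
Difference of log2 signal (vertical axis, Gcnf-/- minus wt) for each of the 46 measured members, grouped by role and ordered within it; bars are limma's moderated SE with n = 2 embryos per genotype, filled points were called and dashed lines mark a 2-fold change. Wnt8a at 2.45 and Wnt2 at 1.44 are the called members, and all other points lie between -0.74 and 0.76.

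The largest difference belonged to Wnt8a, a ligand of the early posterior embryo. Its signal was 5.30 and 5.37 in the wt embryos and 7.30 and 8.25 in the mutants. Both mutants lay far above both wildtypes, and they also differed from each other by more than any other member's replicates did. The difference was 2.45 ± 0.30 (limma adjusted p = 0.0481), a 5.45-fold rise with a 95% interval of 1.67 to 3.22 on the log2 scale. A signal of 5.33 on average in wt is dim for this array, where 4685 of 18193 genes had a mean below 6, so the fold change may be understated. Wnt8a has 1 probe set, so no second one can be set against it.

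Wnt2, the other called ligand, had a signal of 9.16 and 9.57 in the wt embryos and 10.79 and 10.82 in the mutants. The mutants were close together and both above the wildtypes. The difference was 1.44 ± 0.14 (limma adjusted p = 0.0344), or 2.72-fold, with an interval of 1.08 to 1.81. The female wildtype was the lower of its pair, and without it the difference was 1.24 and no longer passed (adjusted p = 0.162).

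Markers of the allantois and umbilical mesoderm were set beside Wnt2. Their mean log2 signal over 5 genes was 7.82 and 7.97 in the wt embryos and 8.19 and 8.26 in the mutants, with 4 of 5 above wt and 0 called (5 at an unadjusted p under 0.05 in limma). Tbx4, a T-box factor of the allantois, read 7.80, 8.71, 9.12 and 9.40 in wt replicates 1 and 2 and mutant replicates 1 and 2, a difference of 1.00 ± 0.30. Like Wnt2, it was lowest in the female wildtype, the array with the low polyA control signal. Pitx1 of the same list went the other way at -0.57. Of 5 heart muscle markers, 0 were called (3 at an unadjusted p under 0.05), with a median of 0.41 and a mean signal of 10.72 and 10.99 in wt against 11.24 and 11.22 in mutants. Myh7 of that list overlapped between genotypes at 0.01. The part of these tissues in the Wnt2 result was not tested.

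The calls of both ligands rested on having all arrays. With any 1 embryo left out, and with the replicate number as a block, neither passed the adjusted threshold, although the differences stayed at 1.24 to 1.65 for Wnt2 and 1.97 to 2.92 for Wnt8a. With 2 against 2 embryos the smallest two-sided p of an exact permutation test is 0.333, and every call rests on the spread that limma shares across probe sets.

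**Figure D2:**
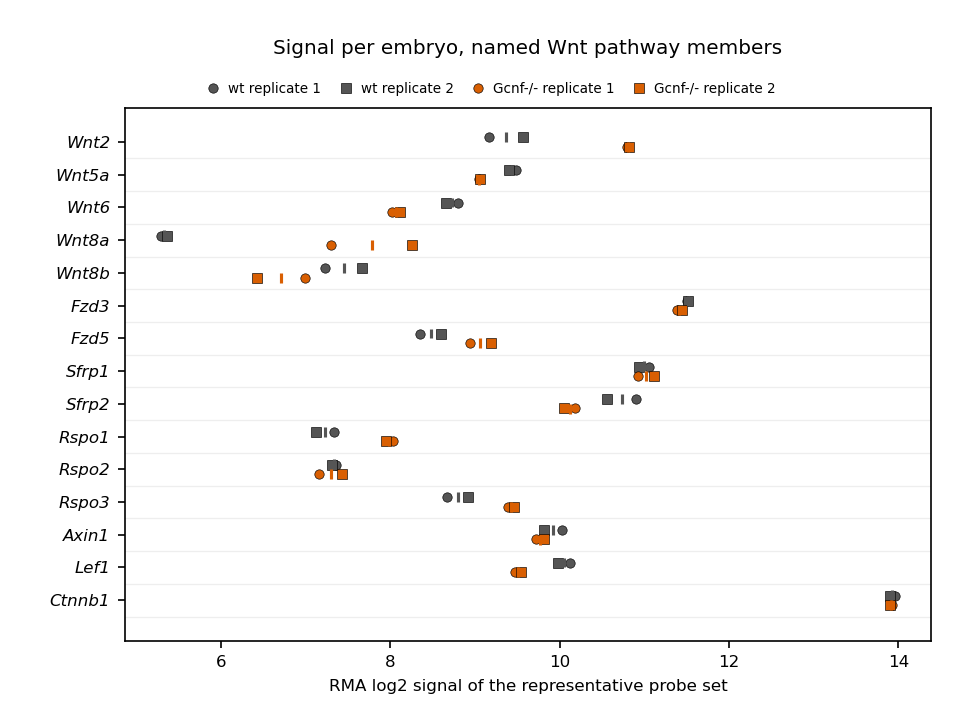
RMA log2 signal (horizontal axis) of the representative probe set in each embryo for 15 named members; replicate 1 is a circle and replicate 2 a square, wt in grey and Gcnf-/- in orange, and short vertical bars are group means. The 2 mutants sit apart from the 2 wildtypes for Wnt2, Wnt8a, Wnt6, Lef1, Rspo1 and Rspo3, while Ctnnb1, Axin1, Sfrp1 and Rspo2 overlap.

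The promoter bases of members near the threshold are shown because a nuclear receptor can act through DNA elements close to its target genes. Elements farther away were not searched. Sequences are from RefSeq (GRCm38.p6), read 5′ to 3′ on the gene's strand, and are the 250 bases before the start site listed for the gene. Of the 47 genes, 32 matched that table, with 40 promoters among them, and Wnt8a and Rspo3 were not among the matches. Wnt2 (chr6:18030446-18030695, minus strand) was called higher, Rspo1 (chr4:124986180-124986429, plus strand) and Wnt6 (chr1:74771642-74771891, plus strand) were the nearest to passing the adjusted p in the higher and the lower direction.
Wnt2: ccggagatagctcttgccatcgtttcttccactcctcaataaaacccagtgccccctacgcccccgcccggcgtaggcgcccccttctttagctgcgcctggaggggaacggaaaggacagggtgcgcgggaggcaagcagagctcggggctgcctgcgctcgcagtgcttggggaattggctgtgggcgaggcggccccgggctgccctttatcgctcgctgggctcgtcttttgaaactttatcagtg
Rspo1: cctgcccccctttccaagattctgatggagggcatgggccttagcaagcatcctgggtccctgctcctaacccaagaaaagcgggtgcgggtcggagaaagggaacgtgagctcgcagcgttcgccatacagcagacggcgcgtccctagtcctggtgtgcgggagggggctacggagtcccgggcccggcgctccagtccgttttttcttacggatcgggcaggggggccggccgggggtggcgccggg
Wnt6: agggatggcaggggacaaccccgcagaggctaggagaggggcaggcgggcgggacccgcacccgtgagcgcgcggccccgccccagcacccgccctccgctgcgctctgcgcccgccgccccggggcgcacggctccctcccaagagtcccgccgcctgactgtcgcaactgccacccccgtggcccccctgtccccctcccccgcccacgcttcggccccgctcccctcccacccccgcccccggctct

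These stretches were rich in G and C, at 63.6% for Wnt2, 66.8% for Rspo1 and 79.6% for Wnt6. The receptor is known to bind a direct repeat of AGGTCA without spacer (AGGTCA followed at once by AGGTCA), and the shorter TCAAGGTCA that it contains. Searched on both strands over windows of 300 bases (250 before to 50 after each start), the repeat was in 2 of 32851 promoters (0.00609%) and in 0 of the 40 member promoters. The shorter motif was in 139 promoters (0.423%) and in 0 of the members'. That says only that these letters are not in these windows.

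Short motifs of TCF and LEF factors, which carry beta-catenin to DNA, were present in a few members. CTTTGAT was in 3.73% of all promoters and in 2 of the 40, and CTTTGAA in 5.14% and in 1. The windows around them are shown with the motif, or its reverse complement, in capitals.
Dkk1 (chr19:30549596-30549624, minus strand): tcctcccaaagCTTTGAAatcccatcccg
Wnt11 (chr7:98835050-98835078, plus strand): gacgtgggcggATCAAAGcgacggtccgc
Wnt5b (chr6:119449440-119449468, minus strand): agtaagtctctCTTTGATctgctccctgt
None of these genes was called. Dkk1 stood at 0.33 ± 0.11, Wnt5b at 0.10 ± 0.08 and Wnt11 at -0.03 ± 0.07.

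Apart from the called pair, no ligand passed. Of the 17 ligand genes with that pair included, 6 lay above wt (35.3%, against 47.2% of all genes) and 11 below, with a median of -0.03 beside -0.01 over all genes, and 8 were below without overlap of the embryos, a condition that 30.4% of all genes met. Wnt6, a ligand of surface ectoderm, read 8.80 and 8.65 in wt and 8.02 and 8.11 in mutants. The mutants were lower in both embryos, and the difference of -0.66 ± 0.09 was short of 2-fold and missed the threshold (limma adjusted p = 0.0501, and 0.0149 to 0.303 over the alternative settings). Its second probe set gave a like value of -0.60 ± 0.17.

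Wnt5a, the ligand that drives non-canonical signalling and axis elongation, read 9.48 and 9.40 in wt and 9.04 and 9.05 in mutants. Each of its 4 probe sets lay below wt without overlap of the embryos, from -0.30 to -0.73, and none passed, with the representative at -0.39 ± 0.07 (adjusted p = 0.0834). The lowest value came from a probe set at 8.51 and 8.11 in wt and 7.49 and 7.68 in mutants (adjusted p = 0.101).

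Wnt8b, a forebrain ligand, read 7.23 and 7.66 in wt and 6.99 and 6.43 in mutants. The embryos did not overlap, but they were spread within each genotype, and the difference of -0.74 ± 0.23 did not pass (adjusted p = 0.179). Its other probe sets were dimmer, at -0.16 and -0.18. Wnt1, which maintains the midbrain-hindbrain boundary, read 7.57 and 7.58 in wt and 7.35 and 7.32 in mutants, a difference of -0.24 ± 0.07 (adjusted p = 0.150). Of 4 midbrain-hindbrain markers, En2 and Pax8 were called lower, where 0.121% of all genes were, and Pax5 (-0.02) and En1 (-0.28, dim) overlapped between genotypes. The mean signal of the 4 was 6.41 and 6.43 in wt and 5.49 and 5.61 in mutants. Of 5 roof plate and dorsal neural tube markers, 0 were called (3 at an unadjusted p under 0.05 in limma). Of the 5, 4 lay below wt, with a median of -0.23 and Zic1 at -1.59 ± 0.27. Among those 4, Lmx1a (-0.23) and Msx1 (-0.02) overlapped between genotypes. Pax3, among the 3 with an unadjusted p under 0.05, went the other way at 0.22 ± 0.07. The part of these tissues in the Wnt1 value was not tested, and forebrain markers were not analysed here.

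The posterior ligand Wnt3a, unlike Wnt8a, overlapped between the genotypes. It read 8.12 and 8.06 in wt and 8.09 and 8.22 in mutants, with a difference of 0.07 ± 0.08 and an interval of -0.14 to 0.27. The differences of Wnt3a and Wnt8a were not tested against each other. Wnt4 at -0.20 and Wnt2b at -0.23 were below wt in both mutants, while a second Wnt4 probe set read 0.01. Wnt2b was dim, at a mean of 5.33 in wt and 5.10 in mutants. The remaining ligands, Wnt3, Wnt5b, Wnt7a, Wnt7b, Wnt10a, Wnt10b, Wnt11 and Wnt16, lay between -0.11 for Wnt7b and 0.12 for Wnt7a. Of these, Wnt3, Wnt10a and Wnt16 had means under 6 in both genotypes, where a difference would be hard to see. A dimmer Wnt7b probe set read -0.30 ± 0.08, lower in both mutants without passing (limma adjusted p = 0.137). Other probe sets of Wnt5b and Wnt7a lay between -0.04 and 0.03.

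Among the receptors none was called, and as many lay above wt as below (6 each, median 0.00). In limma, 4 of 12 (33.3%) had an unadjusted p under 0.05, against 23.8% of all genes. Fzd5 stood out as the highest, with 8.35 and 8.60 in wt and 8.94 and 9.19 in mutants. Its difference was 0.59 ± 0.13 (adjusted p = 0.107), while a dimmer probe set of the gene read 0.10. Fzd1 read 9.35 and 9.45 in wt and 9.67 and 9.88 in mutants, a difference of 0.38 ± 0.10 (adjusted p = 0.134), and Fzd10 stood at 0.23. Both mutants were above both wildtypes for each of these receptors.

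Fzd3, a receptor of the planar polarity branch, was bright and close between genotypes in its representative probe set, at 11.50 and 11.52 in wt and 11.39 and 11.44 in mutants (-0.10 ± 0.07). Its other 5 probe sets were also below wt, down to -0.47, so that the representative gave the smallest difference of the 6. The co-receptor Lrp6 stood at -0.36 ± 0.14 and Lrp5 at -0.16 ± 0.10, with intervals of -0.70 to -0.01 and -0.42 to 0.10. Lrp6 did not pass (limma adjusted p = 0.237), and its second probe set read -0.09 with overlapping embryos. The bright receptors Fzd2 (-0.11) and Fzd7 (0.07) and the receptors Fzd4, Fzd6, Fzd8 and Fzd9 lay between -0.11 and 0.12.

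R-spondins strengthen Wnt signals by keeping Frizzled receptors on the cell surface, and 2 of the 3 were higher in both mutants without passing. Rspo1 read 7.34 and 7.12 in wt and 8.03 and 7.94 in mutants. The genotypes were well apart, and the difference of 0.76 ± 0.10 (limma adjusted p = 0.0506) was 1.69-fold. Rspo3, which is needed for placental and vascular development, read 8.67 and 8.92 in wt and 9.39 and 9.45 in mutants, 0.63 ± 0.10 (adjusted p = 0.0712). A dimmer Rspo3 probe set read 0.21 with overlapping embryos.

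Rspo2 gave different answers by probe set. The representative read 7.36 and 7.31 in wt and 7.16 and 7.43 in mutants, with the mutants on either side of the wildtypes (-0.04 ± 0.11). The other read 6.54 and 5.97 in wt and 5.36 and 4.86 in mutants. There both mutants were lower, by -1.15 ± 0.25, without passing (adjusted p = 0.104). Which of the transcripts each probe set detects is not known here.

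**Figure D3:**
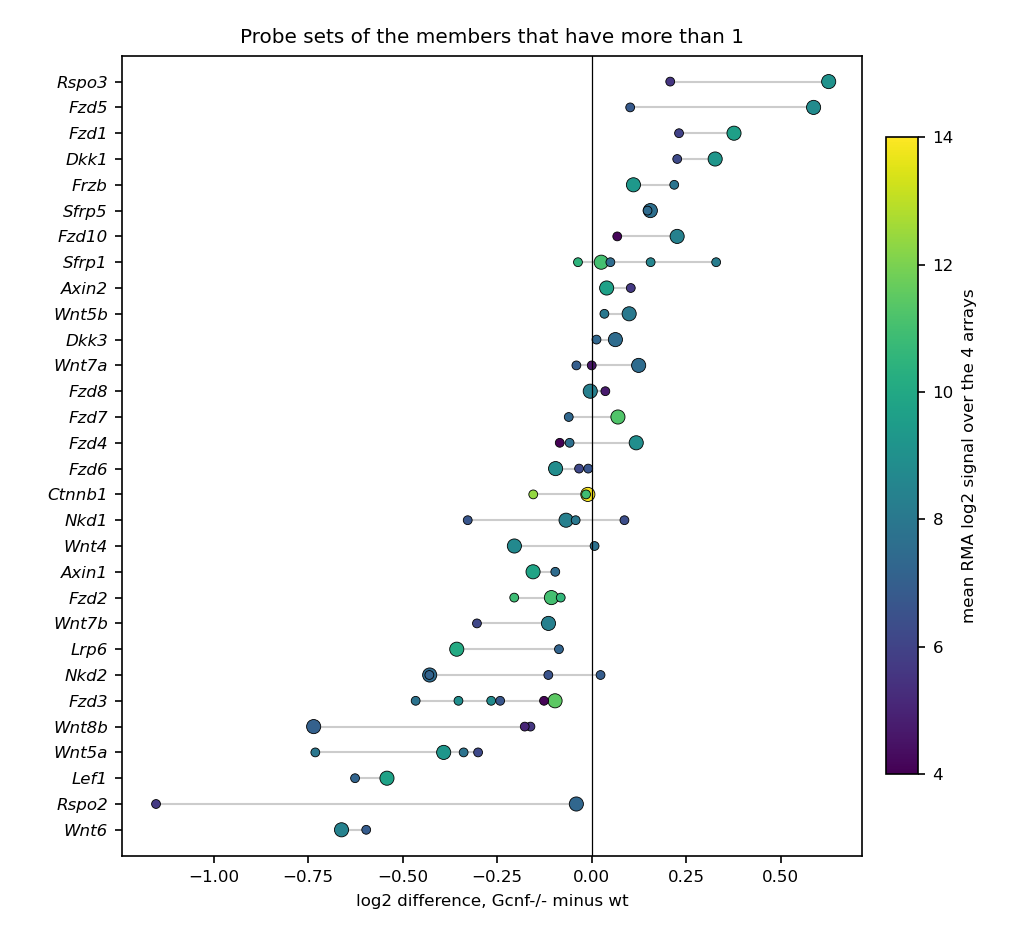
Difference of log2 signal (horizontal axis, Gcnf-/- minus wt) for every probe set of the 30 members that have more than 1, ordered by the mean over their probe sets; large points are the representative probe sets and the colour is the mean log2 signal over the 4 arrays. All probe sets lie on the same side of 0 for 22 genes, among them Wnt5a, Wnt6, Lef1 and Fzd3, and the widest spread is that of Rspo2.

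Secreted inhibitors were mixed, with 0 of 8 called in limma and 2 at an unadjusted p under 0.05 (25.0%, against 23.8% of all genes). Sfrp2, which binds Wnt proteins outside the cell, read 10.90 and 10.56 in wt and 10.19 and 10.05 in mutants. Both mutants were lower, by -0.61 ± 0.13 (adjusted p = 0.107), from a single probe set. Of 4 somite markers, 3 lay below wt with a median of -0.42 and 0 were called (2 at an unadjusted p under 0.05), and the part of somite tissue in the Sfrp2 value was not tested.

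Dkk1, which blocks the Lrp co-receptors and is itself a Wnt target, read 9.14 and 9.07 in wt and 9.29 and 9.57 in mutants, higher in both without passing (adjusted p = 0.205). Sfrp1 read 11.05 and 10.93 in wt and 10.92 and 11.11 in mutants, overlapping, at 0.03 ± 0.10. Its 5 probe sets ran from -0.04 to 0.33. Dkk2, Dkk3, Sfrp5, Frzb and Wif1 lay between -0.16 for Dkk2 and 0.16 for Sfrp5. Wif1 was dim, at a mean of 3.59 in wt and 3.62 in mutants.

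Inside the cell, the feedback gene Axin2, widely used as a readout of beta-catenin activity, showed no detectable difference. It read 9.67 and 9.62 in wt and 9.56 and 9.81 in mutants, with the mutants on either side of the wildtypes. The difference was 0.04 ± 0.11 with an interval of -0.23 to 0.31, and its second probe set gave 0.10. The interval leaves room for a change of up to about that size in either direction. Nkd1 at -0.07 ± 0.11 and the scaffold gene Axin1 at -0.15 ± 0.10 overlapped between genotypes too, Axin1 at 10.03 and 9.82 in wt and 9.71 and 9.82 in mutants. Nkd2 was the exception, at 7.80 and 7.52 in wt and 7.25 and 7.21 in mutants. Its 2 brightest probe sets both read -0.43 (adjusted p = 0.135 and 0.0807) and the other 2 read -0.11 and 0.02.

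Of the nuclear effectors, Lef1 was lower in both mutants without passing and Ctnnb1 overlapped in its representative probe set. Lef1, a DNA-binding partner of beta-catenin, read 10.12 and 9.98 in wt and 9.47 and 9.55 in mutants. The difference was -0.54 ± 0.08 (limma adjusted p = 0.0634), and a second probe set gave -0.63 ± 0.15. Ctnnb1 read 13.96 and 13.90 in wt and 13.93 and 13.90 in mutants, with a difference of -0.01 ± 0.07 and an interval of -0.19 to 0.17. A dimmer Ctnnb1 probe set read -0.15 ± 0.07, with both mutants below both wildtypes (limma adjusted p = 0.296), and another read -0.01. Near the top of the signal range an array can compress differences.

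Of the 30 members with more than 1 probe set, 22 had all of them on the same side of 0 and 8 had probe sets on both sides. In these 8, among them Fzd4, Fzd7, Fzd8, Nkd1 and Wnt7a, no probe set was called. The 16 other members, Wnt2 and Wnt8a among them, rest on 1 probe set each.

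Other genes of the pathway gave the setting. Of 67 listed genes outside the members, 65 were measured. In limma 0 were called and 27 (41.5%) had an unadjusted p under 0.05, against 23.8% of all genes. The median of the 65 was 0.05, with 43 above and 22 below wt (66.2% above, against 47.2% of all genes). One gene had an adjusted p of 0.05 or lower whatever its fold, where 1.40% of all genes did and 0.374% did so on the lower side. That gene was Apcdd1, a membrane-bound Wnt inhibitor and Wnt target, at 10.17 and 9.99 in wt and 9.29 and 9.25 in mutants. It was lower in both mutants by -0.81 ± 0.09 (adjusted p = 0.0402) and short of 2-fold. Of its 6 probe sets all were below wt, and 4 had an adjusted p from 0.0241 to 0.0414.

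Around ligand production and reception, Porcn, the enzyme that attaches the lipid without which Wnt proteins are not secreted, read 7.60 and 7.94 in wt and 8.59 and 8.73 in mutants. Both mutants were above the wildtypes, by 0.89 ± 0.13 (adjusted p = 0.0594). Sostdc1, a secreted inhibitor, lay at -0.90 ± 0.24, with mutants at 7.25 and 6.55 (adjusted p = 0.143). The 26 other intracellular genes, from Dvl1 to Daam1, held within -0.42 and 0.37 in their representative probe sets, with 0 called. Of them, 7 (26.9%) had an unadjusted p under 0.05 in limma, against 23.8% of all genes. A dim Apc2 probe set read 0.46, and the probe sets of Apc and of Daam1 lay on both sides of 0.

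The posterior target genes included some of the larger differences, without any call in a representative probe set. T (Brachyury) was listed too, but it had no probe set with that symbol alone and was not analysed here. Of 16 measured, 12 lay above wt (75.0%, against 47.2% of all genes), with a median of 0.13. Of the 12, 7 were above without overlap of the embryos, as were 4764 of 18193 genes on the array. In limma, 9 of the 16 (56.2%) had an unadjusted p under 0.05, against 23.8% of all genes. Mixl1, a primitive streak homeobox gene, read 6.65 and 7.33 in wt and 8.24 and 8.27 in mutants, 1.26 ± 0.22 (adjusted p = 0.0795). Cdx1, a caudal factor and direct Wnt target, read 6.85 and 6.85 in wt and 7.75 and 8.38 in mutants, 1.22 ± 0.21 (adjusted p = 0.0746). Both mutants were higher than both wildtypes for each gene.

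Relatives and neighbours of these genes, named after their values were seen, did not all follow. Tbx6 of the presomitic mesoderm stood at 0.71 ± 0.10 and the progenitor gene Nkx1-2 at 0.77 ± 0.20, while Cdx4 lay at -0.73 ± 0.14 and Cdx2 at 0.11 ± 0.18. Dimmer probe sets of Nkx1-2 read 0.28 and 0.10. Sp5, a close target of beta-catenin, was at 0.37 ± 0.12. The general growth targets Ccnd1 (-0.50 ± 0.07) and Myc (-0.35 ± 0.08) lay below wt in both mutants. Fgf4, a growth factor of the primitive streak, depended on the probe set, with 0.15 in the representative, 1.03 ± 0.08 in a probe set that was called (adjusted p = 0.0200), and 1.45 and -0.10 in the others.

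**Figure D4:**
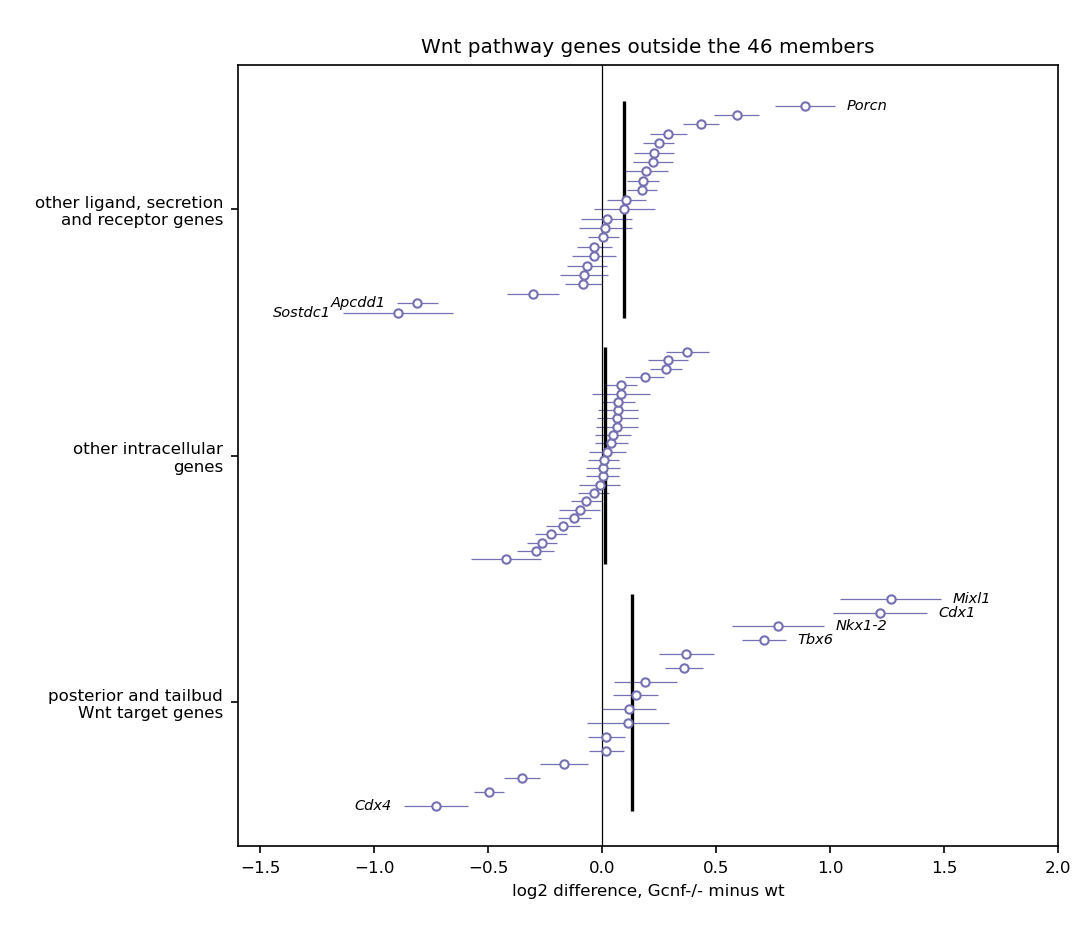
Difference of log2 signal (horizontal axis, Gcnf-/- minus wt) of the 65 measured Wnt pathway genes outside the members, in 3 lists; bars are limma's moderated SE with n = 2 embryos per genotype and thick vertical lines are list medians. Mixl1 at 1.26 and Cdx1 at 1.22 lie farthest to the right, and Sostdc1 at -0.90 and Apcdd1 at -0.81 farthest to the left.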

How the data were processed

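RNA of 4 whole embryos had been hybridised to Affymetrix mouse genome arrays, 1 embryo to an array. The authors deposited log2 signals made with RMA, which corrects background, makes the arrays' distributions alike and reduces each probe set to a single value, so a change shared by most transcripts is removed and dim transcripts read with understated folds. For the RMA version, the chip description and the build, nothing is stated in the sources used here. The table was used as deposited. Of 45101 probe sets, 64 controls were left out. Of the 45037 tested, 34945 (77.6%) had a single symbol, 932 several and 9160 none; identifiers matched RefSeq genes (GRCm38.p6) for 99.4% and changed 0 symbols.

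Genotypes were compared in R 4.3.3 with limma 3.58.1 (lmFit, eBayes), the study's tool and thresholds, with genotype as the only term. Intervals are 95% moderated intervals. The procedure was tested on simulated data. The number of arrays limits the precision. Same-numbered embryos share a number, and whether they share a litter or a batch is not known here. Values per embryo are given for members with a probe set at an adjusted p of 0.05 or a difference of 0.5 or more, and for the brightest member of each role; further members were named after their values were seen. Members and lists were chosen with earlier results of these data known. Alternatives are listed in the closing section.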

Additional observations from a re-analysis of the deposited data

Results flagged for a closer look

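The control probe sets for 18S ribosomal RNA, which enter no comparison between genes, read higher in the Gcnf-/- embryos than in the wt embryos by a log2 difference of 1.06.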

How the results depend on the processing

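Wnt2 and Wnt8a were the members called, and they alone, in all 9 settings that kept the 4 arrays without a block: brighter probe sets only (mean of at least 6), repeated quantile normalisation, median centring, an intensity trend, robust eBayes, no fold threshold, no cross-hybridising probe sets, and a gene's probe sets averaged or the lowest p of them taken. Wnt8a passed the filter on brighter probe sets only through the mutants, so that setting says nothing about its stability. Whatever the fold, 2 members had an adjusted p of 0.05 or lower in the main fit. There were 7 with brighter probe sets and 9 with an intensity trend, Wnt6, Rspo1 and Lef1 among them. Repeated quantile normalisation, median centring and no cross-hybridising probe sets gave 4 each, and averaged probe sets 5. Wnt6 and Rspo1 were among these too, and Lef1 was not. With the replicate number as a block 0 members and 0 probe sets were called in limma (15 members and 8358 probe sets at an unadjusted p under 0.05), the adjusted p being 0.167 for Wnt2 and 0.172 for Wnt8a; deviations of same-numbered embryos correlated at 0.06. With 1 array left out, where the remaining embryo of a genotype is taken to have the other genotype's spread, 0 to 0 members and 0 to 9 probe sets were called (10 to 14 members at an unadjusted p under 0.05), against 172; the 9 came without wt replicate 2. Fewer samples do this by construction. Adjusted p then ran from 0.0680 to 0.240 for Wnt2 and from 0.0922 to 0.322 for Wnt8a. An intensity trend called 260 probe sets and no fold threshold 439. Of the other pathway genes, Mixl1 and Cdx1 were called in 3 settings (2 genes each with brighter probe sets, an intensity trend and the mean of probe sets), and 1 gene each passed with no fold threshold (Apcdd1) and the lowest-p probe set (Fgf4); apart from the last 2, the cause was not tested. Differences near 0 changed sign with 1 array left out, ranging from -0.039 to 0.019 for Ctnnb1, -0.070 to 0.12 for Sfrp1 and -0.17 to 0.092 for Rspo2. The members' median stayed between -0.03 and 0.00. For the 5 members with a mean under 6, signal near background limits what a difference can show.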
